A study of Homo sapiens with 16 samples.

Results

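The response to dihydrotestosterone (DHT) in the VCaP culture named Vc is described here from 4 of the 16 RNA libraries of the series. The libraries were chosen by their source labels: 2 carry the label Vc-1nM-DHT and 2 the label Vc-control. Every gene that passed a filter on low counts was tested, 22553 genes in all. VCaP is an established human prostate cancer cell line in which a fusion places the transcription factor gene ERG behind the promoter of TMPRSS2. Cells of Vc had spent 4 months in ethanol. They were then held for at least 48 h in medium without phenol red and with charcoal-stripped serum, which is low in steroids, and treated for 24 h. The DHT group received DHT at 1 nM; the labels name its reference group only as control. Of the other arms, 2 are set beside this response. In the first, Vc received 1 µM enzalutamide, an antagonist of the androgen receptor, alone or together with 1 nM DHT. In the second, Ver, the same line kept for 4 months in 1 µM enzalutamide, was labelled control or received 1 nM DHT. Each group had 2 libraries, and the 3 arms share none. Vc and Ver are 1 culture each, and the labels do not call the libraries of a group separate cultures, so p-values measure the spread between these libraries, which may be technical. All Vc libraries carry 1 sequencing lane in their names and all Ver libraries another, so line and lane cannot be told apart. The series states as its purpose a comparison of Vc with Ver.

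DHT is the androgen formed from testosterone inside prostate cells. It binds the androgen receptor, which then enters the nucleus and occupies DNA at androgen response elements, paired half-sites read by the receptor as a dimer. In the luminal cells of the prostate this receptor drives the secretory programme, including the kallikrein proteases of seminal fluid. Androgens are also known to repress genes and, depending on dose and cell line, to promote or to slow proliferation.

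Gene totals of the 16 libraries ran from 8155244 to 13273523 counts, and the 4 libraries compared here held between 10729292 and 13273523. Reads assigned to no annotated feature made up 50.1 to 50.6% of the counted reads in control and 46.9 to 47.1% with DHT. The mitochondrial chromosome took 2.72 to 2.95% of the gene counts in control and 2.12 to 2.24% with DHT. The part of these differences in the results was not tested. The 9 VCaP and luminal prostate markers were all expressed, with a summed level of 5066 to 5110 CPM in control and 9657 to 9824 CPM with DHT. CPM are counts per 1000000; these marker sums are relative to each library's gene total, and all other CPM below to library sizes scaled by the trimmed mean of M values (TMM). In short lists for other cell types, 6 basal markers summed to 0.71 to 1.11 CPM in control and 2.33 to 3.31 CPM with DHT. KRT5, KRT17 and TP63 were at 0. On the TMM scaling, a longer basal list summed to 221 to 227 CPM in control and 220 to 223 CPM with DHT. The 5 endothelial markers summed to 0.47 to 1.06 and 0.75 to 1.49 CPM, with KDR at 0. The 12 immune markers summed to 2.12 to 2.29 and 0.75 to 1.28 CPM, with CD3D, CD3E, CD2, MS4A1 and ITGAM among those at 0. The 8 stromal markers, with COL1A2 at 0, summed to 18.4 to 18.7 CPM in control and 2.71 to 3.91 CPM with DHT, and most of the control value was LUM, described among the genes that fell. The part of these markers in the results was not tested.

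DHT changed the level of a large part of the transcriptome. By edgeR's quasi-likelihood test with Benjamini-Hochberg adjustment, 4917 genes (21.8% of those tested) were called higher and 5070 (22.5%) lower at an adjusted p under 0.05, the threshold behind every "rose", "fell" and "called" below. Called genes that rose by at least 2-fold numbered 1609 (7.13%), and 2407 (10.7%) fell by at least 2-fold. The falls ran deeper: 912 genes fell and 349 rose by at least 4-fold, 342 fell and 91 rose by at least 8-fold, and 86 fell and 19 rose by at least 32-fold. Many of the deep falls were in genes of low expression. Among the 12358 genes with a mean of at least 5 CPM over the 4 libraries, 1049 rose and 1049 fell by at least 2-fold, and the middle 90% of log2 changes lay between -1.31 and 1.27. Protein-coding genes were called more often than other types: of 14317 tested, 29.4% rose and 28.2% fell. For 1349 long intergenic RNAs the shares were 8.9% and 16.7%, and for 147 small nucleolar RNAs 2.0% and 13.6%, with a median level of 21.6 CPM for the protein-coding genes and 1.41 CPM for the small nucleolar RNAs. Polyadenylated RNA was sequenced, so counts of RNAs without a poly(A) tail may not follow their levels. The balance of rises and falls depended on the scaling. With library size alone in place of TMM, 3575 genes were called higher and 6814 lower, so that 34.4% rather than 49.2% of the calls were rises, and the median log2 change over all genes moved from -0.04 to -0.21. The changes below are relative to the TMM scaling, and a gene group is marked where the library-size scaling turns the balance of its calls or the sign of its median. Counts of members that rose and fell are to be read against the 21.8% and 22.5% of all genes. Shares were higher among protein-coding genes (29.4% and 28.2%) and among genes with a mean of at least 5 CPM (34.3% and 28.9%). A count near any of these shares is near the background. With 2 libraries a group, values can also lie apart in a gene that did not change. Statements below that groups lay apart or did not overlap therefore describe the values and add nothing to the test. The lists were written from general knowledge with earlier results of these data known. Their counts are therefore descriptions and not an independent check of what is known of these genes.

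**Figure D1:**
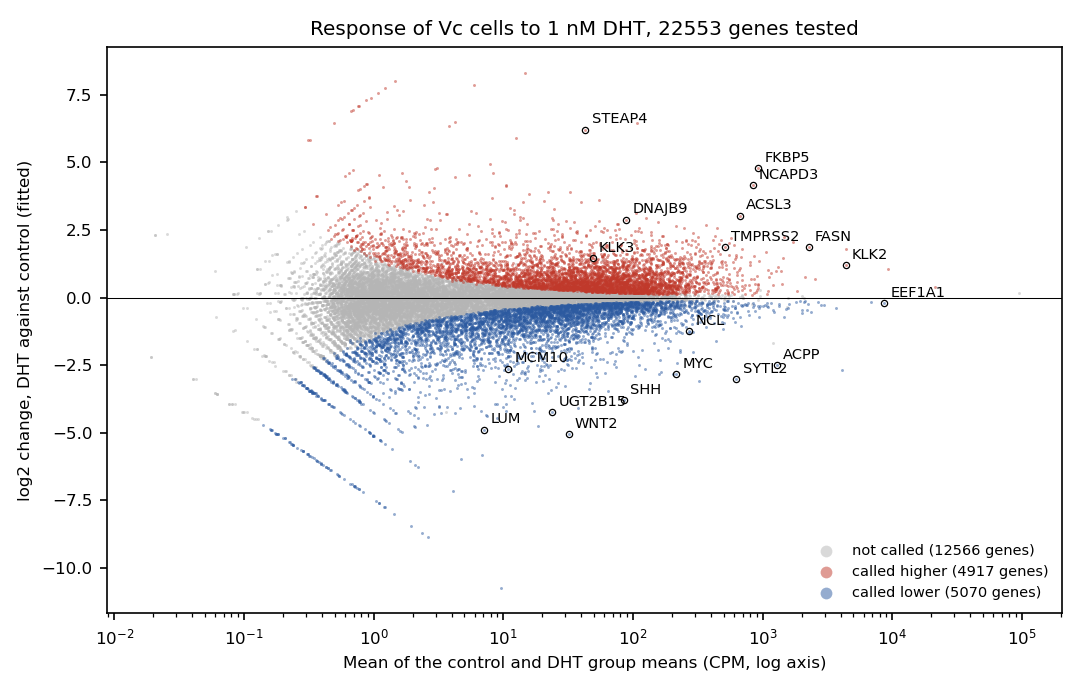
Each of the 22553 genes tested, by the mean of its control and DHT group means (CPM, log axis) and its fitted log2 change with DHT in Vc. Red marks the 4917 genes called higher, blue the 5070 called lower and grey those not called; the called genes spread to both sides of 0 at every level above a few CPM, and the longest falls lie among genes of low expression.

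The androgen-induced list, 35 genes with known induction in prostate cells, rose in most members: 30 of 34 tested members rose and 2 fell, with a median log2 change of 1.44 against -0.04 over all genes tested. KLK3, which encodes prostate-specific antigen, stood at 27.3 and 24.8 CPM in the 2 control libraries and 75.5 and 68.1 CPM in the 2 DHT libraries. Both DHT libraries were well above both controls, and the log2 change was 1.46 (SE 0.10, adjusted p = 4.59e-31). KLK2, the related kallikrein protease, went from 2703 and 2577 to 6196 and 5989 CPM without overlap, a log2 change of 1.21 (SE 0.041, adjusted p = 1.53e-60). TMPRSS2, a membrane serine protease, measured 211 and 226 CPM in control and 794 and 803 CPM with DHT, and ERG, whose fusion uses the TMPRSS2 promoter, 318 and 328 and 923 and 908 CPM. The groups were apart for both genes, with log2 changes of 1.87 (SE 0.053, adjusted p = 1.61e-67) for TMPRSS2 and 1.502 (SE 0.051, adjusted p = 2.21e-60) for ERG.

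The promoter window of KLK3 is shown because its androgen response element is a textbook site of receptor binding. It is the RefSeq sequence of the 250 bases before the start of the gene, chr19:50854665-50854914 on the plus strand of GRCh38.p14. The capitals mark the match found to the half-sites AGAACA and TGTTCT with a spacer of 3 bases and at most 2 mismatches, searched on both strands, which begins 170 bases before the start.
KLK3: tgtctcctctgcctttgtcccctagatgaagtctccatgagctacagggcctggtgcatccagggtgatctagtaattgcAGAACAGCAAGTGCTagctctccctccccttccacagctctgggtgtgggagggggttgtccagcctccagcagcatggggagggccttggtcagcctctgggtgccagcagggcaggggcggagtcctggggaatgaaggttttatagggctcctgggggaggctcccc
A match of this kind was in 1 of the 26 androgen-induced promoters in the RefSeq table, that of KLK3, and in 1.44% of all 27305 promoter windows of the same 300 bases.

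The largest rises in the androgen-induced list were those of FKBP5, NCAPD3, ACSL3 and STEAP4. FKBP5, a co-chaperone of steroid receptors, rose from 64.7 and 63.1 CPM in the control libraries to 1761 and 1784 CPM with DHT, a log2 change of 4.79 (SE 0.075, adjusted p = 4.81e-30). NCAPD3, a subunit of the condensin II complex, measured 91.5 and 85.6 CPM in control and 1550.4 and 1627 CPM with DHT, and ACSL3, which activates long-chain fatty acids, 148 and 144 and 1183 and 1204 CPM. Control and DHT libraries were far apart for all of these genes, with log2 changes of 4.16 (SE 0.083, adjusted p = 1.89e-19) and 3.03 (SE 0.064, adjusted p = 2.19e-36). STEAP4, a metalloreductase, was close to absent in control at 1.23 and 1.02 CPM and reached 85.2 and 84.04 CPM with DHT, a log2 change of 6.21 (SE 0.28, adjusted p = 1.33e-67). Among the remaining members, NDRG1, a stress-responsive differentiation gene, rose from 1950.4 ± 7.38 to 6769 ± 50.4 CPM, and PMEPA1, a membrane protein that dampens TGF-beta signalling, rose from 761 ± 27.4 to 2119 ± 26.4 CPM. Called against the list were PTGER4, a prostaglandin E2 receptor, which fell from 19.3 ± 0.141 to 4.699 ± 0.322 CPM, and ADAMTS1, a secreted metalloprotease, which fell from 41.5 ± 2.66 to 14.6 ± 0.012 CPM.

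**Figure D2:**
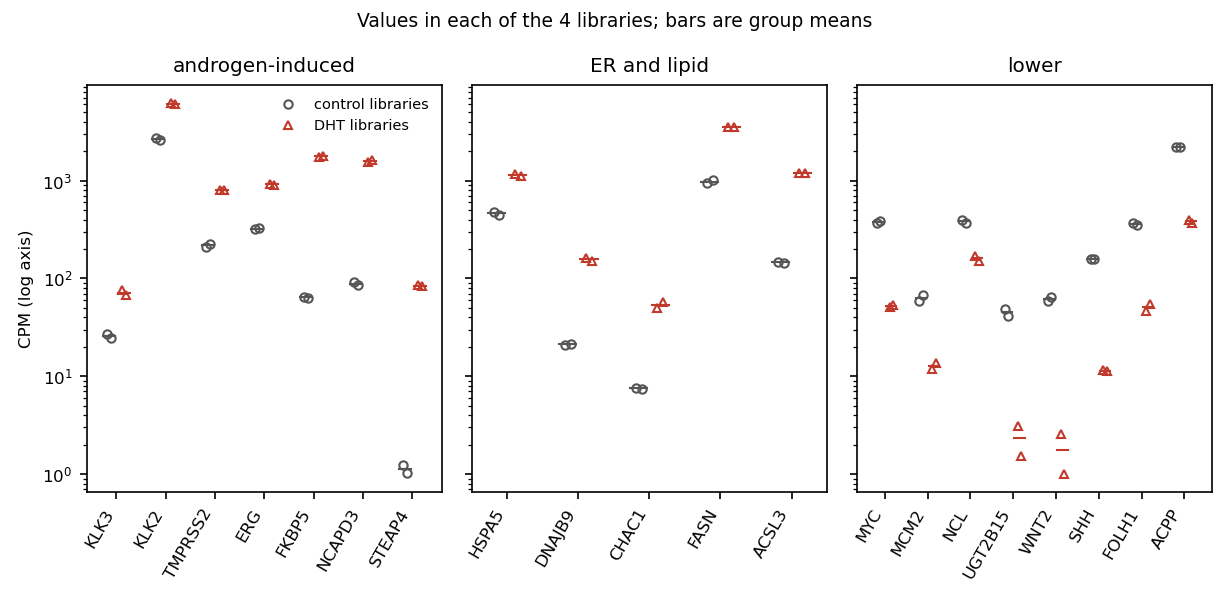
CPM (log axis) of single genes in the 2 control libraries (circles) and the 2 DHT libraries (triangles) of Vc, with bars at the group means. In all 20 genes drawn the control and DHT libraries do not overlap. Values with DHT are higher in the androgen-induced and the ER and lipid panels and lower in the third. The genes were picked for drawing, so the lack of overlap describes these genes only. The share of all genes tested without overlap is not given here.

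Outside the lists, the largest rises among genes with a mean of at least 5 CPM included several that were near 0 without androgen. TBX15, a developmental T-box factor, had 1 count in the 2 control libraries together and 264 with DHT, a ratio of 297 (95% exact interval 52.8 to 11800, counting error only). SLC2A5, the fructose transporter GLUT5, rose from 0.447 ± 0.088 to 10.5 ± 0.099 CPM, and AZGP1, a secreted zinc-binding glycoprotein of the prostate, from 1.15 ± 0.422 to 19.9 ± 0.227 CPM. The titin-related CCDC141 rose from 0.397 ± 0.201 to 24.6 ± 3.496 CPM, ADGRG2, an adhesion receptor of the male tract, from 2.78 ± 0.092 to 41.3 ± 2.401 CPM, and the nuclear factor AFF3 from 2.03 ± 0.83 to 29.5 ± 3.66 CPM. FAM189A2, a membrane protein, rose from 4.02 ± 0.635 to 60.7 ± 1.09 CPM. A value that rests on 1 library is that of RNU1-4, a copy of the U1 spliceosomal RNA, at 2.69 and 2.12 CPM in control and 423 and 1.63 CPM with DHT. The groups overlap for RNU1-4, and its log2 change of 6.46 (SE 3.04, adjusted p = 0.0474) was -0.57 without replicate 1 of the DHT group.

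Measured as gain in CPM, NEAT1, the RNA scaffold of nuclear paraspeckles, rose from 5861 and 6065 to 12502 and 12413 CPM, and RN7SL2, the RNA of the signal recognition particle, from 19555 and 17371 to 24295 and 24474 CPM. The DHT libraries were higher for each, by log2 changes of 1.06 (SE 0.075, adjusted p = 1.7e-07) and 0.40 (SE 0.084, adjusted p = 0.00359). RN7SL2 has near-identical copies in the genome, so its reads may be split among them. HIPK2, a nuclear kinase, rose from 659 ± 0.767 to 2743 ± 2.595 CPM, and CKB, the brain-type creatine kinase, from 516 ± 35.97 to 2423 ± 168 CPM.

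Most tested genes of the secretory pathway lists rose. The unfolded protein response couples the load of proteins in the endoplasmic reticulum (ER) to the making of chaperones through the sensors IRE1, PERK and ATF6 and the factors XBP1 and ATF4. Among the 16 sensors and transcription factors of this response, 15 rose and 1 fell, against 21.8% and 22.5% of all genes. XBP1, the factor made active by IRE1-dependent splicing, measured 197 and 199 CPM in control and 467 and 483 CPM with DHT, a log2 change of 1.26 (SE 0.053, adjusted p = 1.18e-49). ATF4, the factor translated when PERK is active, measured 243 and 227 and 576 and 579.6 CPM, a log2 change of 1.30 (SE 0.052, adjusted p = 9.92e-52). Neither gene overlapped between the groups. Gene counts do not separate the spliced from the unspliced form of XBP1 and do not report the translation of ATF4. ERN1, which encodes the sensor IRE1, rose from 46.99 ± 4.100 to 169 ± 7.42 CPM, and EIF2AK3, which encodes PERK, from 28.4 ± 2.72 to 85.4 ± 6.57 CPM. DDIT3, the pro-apoptotic factor CHOP, rose from 9.35 ± 0.492 to 47.5 ± 1.22 CPM, and ATF3 from 4.09 ± 2.06 to 20.8 ± 5.23 CPM. The 1 fall was that of CREB3L1, an ER-anchored factor, from 10.8 ± 1.76 to 5.36 ± 0.034 CPM.

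Of the ER folding and degradation genes, 36 of 37 tested members rose and 0 fell, with a median log2 change of 1.31; ERO1A, an oxidase of protein disulfides, was the member not called (75.6 ± 4.45 against 74.4 ± 8.17 CPM). DNAJB9, a co-chaperone of BiP, stood at 20.9 and 21.6 CPM in control and 163 and 149 CPM with DHT, a log2 change of 2.88 (SE 0.087, adjusted p = 5.92e-69). DNAJC3 rose from 36.4 ± 2.15 to 194 ± 4.76 CPM, DNAJC10 from 111 ± 8.36 to 528 ± 1.83 CPM, and SELENOS, a selenoprotein of ER-associated degradation, from 32.2 ± 0.158 to 159 ± 11.9 CPM. HSPA5, which encodes BiP itself, went from 475 and 448 to 1154 and 1118 CPM, a log2 change of 1.30 (SE 0.048, adjusted p = 2.56e-56). The DHT libraries lay above the control libraries for each of these genes. HSPA5, ERN1, EIF2AK3, ERO1A and, further on, HMGCS1, PCNA, MKI67, NCL, NPM1, POLR1B, IHH, PTCH1 and the members given as not called are outside the naming rule and were chosen after their values were seen.

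The promoter of CRELD2, a chaperone-like ER gene that rose from 37.6 ± 0.956 to 128 ± 5.32 CPM, is shown because it holds an ER stress element, the site of the ATF6 and XBP1 factors. The window is the RefSeq sequence of the 250 bases before the start, chr22:49918384-49918633 on the plus strand of GRCh38.p14. Capitals mark the match to CCAAT, 9 bases of any kind and CCACG, here on the opposite strand, which begins 80 bases before the start.
CRELD2: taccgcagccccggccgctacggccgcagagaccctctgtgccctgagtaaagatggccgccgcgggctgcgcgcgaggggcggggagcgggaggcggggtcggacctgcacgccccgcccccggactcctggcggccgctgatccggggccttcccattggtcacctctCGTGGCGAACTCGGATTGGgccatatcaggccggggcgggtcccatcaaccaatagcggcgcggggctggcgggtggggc
Exact matches on either strand were in 6 of the 33 ER folding and degradation promoters in the table (18.18%), those of HSPA5, HSP90B1, CALR, CANX, ERO1B and CRELD2, and in 0.08% of all 27305 windows.

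ATF4 target genes, which serve amino acid supply and tRNA charging, counted 28 rises and 2 falls among 30 tested, with a median log2 change of 1.46. CHAC1, which degrades glutathione, went from 7.55 and 7.48 CPM in control to 50.1 and 56.9 CPM with DHT, a log2 change of 2.83 (SE 0.15, adjusted p = 7.06e-41). SLC7A11, the cystine transporter, rose from 57.7 ± 0.815 to 282 ± 2.89 CPM, DDIT4, an inhibitor of mTORC1, from 18.3 ± 1.93 to 73.2 ± 0.132 CPM, and TRIB3, a pseudokinase, from 106 ± 2.99 to 420.4 ± 12.8 CPM. All 8 tRNA synthetase genes of the list were among the rises. The falls were in CTH, an enzyme of cysteine synthesis (6.79 ± 2.41 against 3.62 ± 1.38 CPM), and ALDH18A1, of proline synthesis (100.2 ± 0.231 against 87.9 ± 6.96 CPM).

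The window of CHAC1 is shown as the largest member with an ATF4 element. It spans chr15:40953221-40953470 on the plus strand of GRCh38.p14 (RefSeq, the 250 bases before the start), and the capitals mark the match to TGATGNAA, on the opposite strand, 209 bases before the start.
CHAC1: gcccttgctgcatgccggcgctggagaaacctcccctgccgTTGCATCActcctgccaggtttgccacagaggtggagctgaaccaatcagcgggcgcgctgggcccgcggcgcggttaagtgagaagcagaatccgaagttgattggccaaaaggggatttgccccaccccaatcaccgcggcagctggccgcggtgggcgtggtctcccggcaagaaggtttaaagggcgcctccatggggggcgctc
The element was in 7 of 25 ATF4 target promoters in the table (28.0%) and in 3.67% of all windows.

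Genes of entry into the ER and of transport between the ER and the Golgi followed the same direction. Of the translocon and signal peptidase genes, 23 of 25 tested members rose and 0 fell (median log2 change 1.18). SEC11C, a signal peptidase subunit, rose from 40.5 ± 0.783 to 164 ± 2.71 CPM, and SSR3, of the translocon-associated complex, from 188 ± 11.8 to 734 ± 15.6 CPM. For the COPII coat, which carries cargo from the ER to the Golgi, 23 of 25 tested members rose and 1 fell; SEC24D, a cargo adaptor, rose from 43.6 ± 4.79 to 232 ± 0.934 CPM, and MIA3, the cargo receptor for large collagens, fell from 321 ± 22.3 to 245 ± 6.09 CPM. For the COPI coat, which returns proteins to the ER, 23 of 24 tested members rose and 0 fell, led by the cargo receptor TMED9 (91.7 ± 1.64 against 383 ± 5.28 CPM). Among N-glycosylation and sugar nucleotide genes, 43 of 54 tested members rose and 3 fell. Both subunits of GDP-mannose pyrophosphorylase were at the top, GMPPA from 22.99 ± 1.37 to 88.3 ± 2.67 CPM and GMPPB from 33.3 ± 0.428 to 125 ± 3.98 CPM, together with UAP1, which makes UDP-N-acetylglucosamine, from 73.7 ± 1.84 to 247 ± 12.8 CPM. The falls in this list were small and lay in ALG6, ALG10 and MPI, with log2 changes of -0.74, -0.58 and -0.18.

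**Figure D3:**
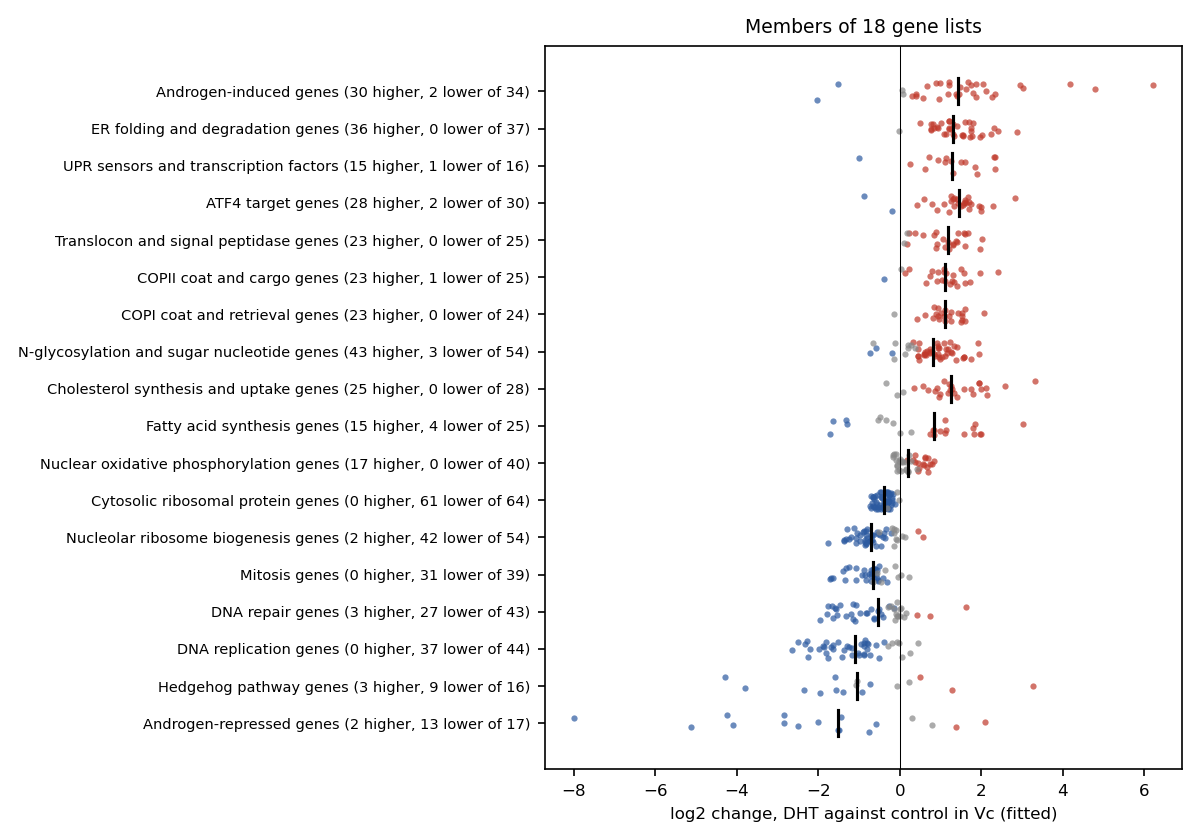
Fitted log2 change with DHT in Vc of the tested members of 18 of the 50 gene lists, 1 point per gene, red where called higher, blue where called lower and grey where not called, with a bar at each list's median. Lists of the secretory pathway and of cholesterol synthesis lie to the right of 0, and lists of DNA replication, mitosis, DNA repair and ribosome biogenesis to the left.

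Most tested genes of cholesterol and fatty acid synthesis rose. Cells sense cholesterol through SCAP and the INSIG proteins, which control the release of the factors SREBP1 and SREBP2, encoded by SREBF1 and SREBF2. In the cholesterol synthesis and uptake list, 25 of 28 tested members rose and 0 fell, with a median log2 change of 1.25. SREBF1 measured 80.8 and 84.6 CPM in control and 196 and 192 CPM with DHT, a log2 change of 1.23 (SE 0.063, adjusted p = 1.64e-40), and SREBF2 302 and 311 and 496 and 495 CPM, a log2 change of 0.69 (SE 0.051, adjusted p = 2.02e-26). Both were higher in both DHT libraries. HMGCS1, an early enzyme of the pathway, rose from 150.4 and 145 to 519 and 506 CPM, again without overlap, a log2 change of 1.79 (SE 0.055, adjusted p = 8.13e-66). The largest rises in the list were those of STARD4, a cholesterol carrier (2.02 ± 1.29 against 20.4 ± 2.56 CPM), INSIG1 (70.95 ± 3.86 against 423 ± 13.7 CPM), MSMO1 (95.02 ± 5.35 against 419.8 ± 15.3 CPM) and IDI1 (52.5 ± 2.79 against 229 ± 18.6 CPM). The members not called included INSIG2 and TM7SF2, with log2 changes of -0.06 and 0.08.

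The SREBF2 window is shown as the member with a sterol response element, chr22:41832855-41833104 on the plus strand of GRCh38.p14 (RefSeq, the 250 bases before the start). Capitals mark the match to TCACNCCAC, searched on both strands, which begins 133 bases before the start.
SREBF2: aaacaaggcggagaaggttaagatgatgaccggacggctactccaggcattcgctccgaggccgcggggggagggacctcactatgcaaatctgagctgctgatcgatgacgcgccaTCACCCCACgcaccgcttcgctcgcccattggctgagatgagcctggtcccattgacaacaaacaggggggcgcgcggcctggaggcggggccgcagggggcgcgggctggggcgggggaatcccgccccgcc
This exact form was in 1 of 21 promoters of the list (4.76%) and in 1.15% of all windows.

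Fatty acid synthesis was more divided: 15 of 25 tested members rose and 4 fell. FASN, the fatty acid synthase, measured 951 and 1003 CPM in control and 3506 and 3563 CPM with DHT, a log2 change of 1.85 (SE 0.045, adjusted p = 5.43e-76). The desaturases FADS1 and FADS2 rose from 127 ± 1.45 to 502 ± 8.899 CPM and from 43.3 ± 1.64 to 168 ± 2.19 CPM. Falls were seen for ACACB, the mitochondrial acetyl-CoA carboxylase (21.9 ± 1.297 against 6.66 ± 0.357 CPM), MLXIPL, a carbohydrate-sensing factor (3.19 ± 0.051 against 1.04 ± 0.542 CPM), ACSL4 (12.96 ± 1.02 against 5.14 ± 1.09 CPM) and DGAT2, which makes triglycerides (37.9 ± 2.46 against 15.4 ± 1.28 CPM). In fatty acid oxidation, 13 of 24 tested members rose and 4 fell (2 without Vc-control replicate 1); ACADVL, the very long chain acyl-CoA dehydrogenase, rose from 68.7 ± 3.98 to 149 ± 4.596 CPM and ECI2 from 13.7 ± 0.439 to 29.95 ± 0.255 CPM, while HADH fell from 63.8 ± 1.16 to 29.8 ± 1.11 CPM. Of the cholesterol efflux and LXR target genes, 4 of 11 tested members rose and 2 fell (4 each with library-size scaling), and ABCA1, the cholesterol exporter, fell from 13.1 ± 2.68 to 2.41 ± 0.537 CPM.

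Most genes of DNA replication fell. In that list 0 rose and 37 of 44 tested members fell, 23 of them by at least 2-fold, with a median log2 change of -1.09. MCM10, which starts the replicative helicase, went from 16.8 and 20.6 CPM in control to 2.63 and 3.46 CPM with DHT, and UHRF1, which maintains DNA methylation behind the fork, from 33.8 and 40.1 to 6.41 and 6.61 CPM. The DHT libraries were lower for both, by log2 changes of -2.63 (SE 0.24, adjusted p = 3.51e-22) and -2.504 (SE 0.16, adjusted p = 1.88e-33). MCM2, a helicase subunit, fell from 63.7 ± 6.26 to 12.9 ± 1.35 CPM, MCM5 from 48.9 ± 0.261 to 10.2 ± 2.498 CPM, and PCNA, the sliding clamp, from 75.4 ± 7.87 to 37.6 ± 2.84 CPM. The members that were not called included CDC6, CDT1, POLE and POLA1 (log2 changes 0.06, -0.30, -0.08 and -0.20).

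The UHRF1 window is shown as the largest member with an E2F element, chr19:4909251-4909500 on the plus strand of GRCh38.p14 (RefSeq, the 250 bases before the start). Capitals mark the match to TTTCCCGC, on the opposite strand, 14 bases before the start. TTTGGCGC was searched as well, and both forms on both strands.
UHRF1: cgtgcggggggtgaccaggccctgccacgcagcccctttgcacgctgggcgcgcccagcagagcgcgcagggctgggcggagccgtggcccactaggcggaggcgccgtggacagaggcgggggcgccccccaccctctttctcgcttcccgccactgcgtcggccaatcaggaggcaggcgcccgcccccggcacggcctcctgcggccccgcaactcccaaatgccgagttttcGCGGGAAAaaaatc
Either form was in 17 of 38 DNA replication promoters in the table (44.74%) and in 2.31% of all windows.

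Of the mitosis genes, 0 rose and 31 of 39 fell, with a smaller median log2 change of -0.66. BUB1B, a kinase of the spindle checkpoint, fell from 15.9 ± 1.75 to 4.78 ± 1.02 CPM, TTK, another checkpoint kinase, from 24.6 ± 0.404 to 7.74 ± 1.42 CPM, and MAD2L1 from 14.5 ± 0.152 to 4.67 ± 0.574 CPM. MKI67, the proliferation antigen Ki-67, fell by less (64.4 ± 3.05 against 45.1 ± 6.25 CPM, log2 change -0.52 (SE 0.095, adjusted p = 8.36e-07)), and PLK1, AURKA and CDC20 were not called (log2 changes 0.03, -0.04 and -0.13).

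The BUB1B window is shown for its cell cycle homology region (CHR), the short element bound by the complexes that time mitotic genes. It spans chr15:40160819-40161068 on the plus strand of GRCh38.p14 (RefSeq, the 250 bases before the start), and the capitals mark the match to TTTGAA, searched on both strands, 23 bases before the start.
BUB1B: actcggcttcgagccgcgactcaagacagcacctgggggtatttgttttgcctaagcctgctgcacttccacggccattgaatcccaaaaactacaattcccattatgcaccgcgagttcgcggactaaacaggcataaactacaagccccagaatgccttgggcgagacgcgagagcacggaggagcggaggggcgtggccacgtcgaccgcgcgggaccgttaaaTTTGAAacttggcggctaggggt
These letters were in 23 of 33 mitosis promoters in the table (69.7%) and in 15.43% of all windows, so a match by itself is common. Of the 1413 windows of genes that fell by at least 2-fold, 11.68% held TTTGAA and 4.25% an E2F element, against 10.85% and 3.26% of the 5697 windows of genes not called. For genes that rose by at least 2-fold the ER stress element was in 7 of 1042 windows (0.67%) and the androgen half-site pair in 11 (1.06%), against 0.02% and 0.67% of the windows not called. Windows of the 2-fold falls held the half-site pair in 12 cases (0.85%), a share near that of the rises, and the ER stress element in 0. TTTGAA and the E2F element were in 9.4% and 2.3% of the windows of the 2-fold rises.

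The G1 regulators went both ways. In this list, 8 of 26 tested members rose and 14 fell. CDKN1A, which encodes the inhibitor p21, rose from 30.1 and 33.2 to 187 and 190.4 CPM, a log2 change of 2.58 (SE 0.076, adjusted p = 1.45e-69), and CDKN2B, the inhibitor p15, rose from 6.41 ± 0.903 to 19.8 ± 1.14 CPM. CCND1, which encodes cyclin D1, also rose, from 331 and 343 to 509.8 and 547 CPM (log2 change 0.65 (SE 0.05, adjusted p = 1.27e-24)). The factors E2F2 and E2F8 fell from 17.7 ± 2.66 to 4.35 ± 0.46 CPM and from 7.34 ± 1.996 to 1.72 ± 1.28 CPM, E2F7 from 9.27 ± 2.87 to 2.85 ± 0.428 CPM, and the inhibitor CDKN2A from 14.6 ± 0.447 to 4.14 ± 1.33 CPM. For DNA repair, 3 of 43 tested members rose and 27 fell. XRCC2, of homologous recombination, fell from 32.6 ± 0.268 to 8.41 ± 1.33 CPM, EXO1, a nuclease, from 11.7 ± 0.612 to 3.401 ± 0.067 CPM, and BRCA2, also of homologous recombination, from 13.5 ± 1.39 to 4.27 ± 0.576 CPM. The rises included LIG4, the ligase of end joining (12.2 ± 1.78 against 37.6 ± 2.71 CPM), and FANCF (17.8 ± 1.18 against 29.8 ± 1.18 CPM). Histone genes counted 9 rises and 5 falls among 19 (7 and 8 with library-size scaling), with H1F0, the linker histone of resting cells, up from 274 ± 1.66 to 704 ± 15.7 CPM. Polyadenylated RNA was sequenced, so counts of histone RNAs without a poly(A) tail may not follow their levels.

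MYC, a transcription factor gene that drives ribosome production, went from 372 and 384 CPM in the control libraries to 51.3 and 54.2 CPM in the DHT libraries. Its DHT values were far below the control values, and the log2 change was -2.84 (SE 0.062, adjusted p = 3.71e-85). In the MYC network, 3 of 12 tested members rose and 6 fell; MXI1, an antagonist that shares MYC's partner MAX, fell from 36.8 ± 0.126 to 5.06 ± 0.397 CPM, MLX rose from 19.4 ± 1.18 to 45.3 ± 1.66 CPM, and MAX itself was not called (log2 change 0.08). Of the nucleolar ribosome biogenesis genes, 2 of 54 tested members rose and 42 fell, with a median log2 change of -0.72. NCL, nucleolin, fell from 391.5 and 372 to 169 and 152 CPM, a log2 change of -1.25 (SE 0.056, adjusted p = 9.62e-47), and NPM1, nucleophosmin, from 384 and 373 to 158 and 148 CPM, a log2 change of -1.30 (SE 0.054, adjusted p = 2.44e-50). DHT libraries were below control libraries for each. POLR1E, a subunit of RNA polymerase I, fell from 42.7 ± 2.401 to 12.6 ± 0.416 CPM, and NHP2, of the small nucleolar ribonucleoproteins, from 31.7 ± 1.69 to 12.2 ± 0.101 CPM. The rises in this list were NOP10 (19.9 ± 0.212 against 29.9 ± 1.54 CPM) and MPHOSPH10 (21.2 ± 1.59 against 28.7 ± 0.013 CPM). Among cytosolic ribosomal protein genes, 0 rose and 61 of 64 fell, none by 2-fold, with a median log2 change of -0.38. Several were among the genes with the largest loss in CPM: RPL4 fell from 1830.4 ± 30.01 to 1111 ± 7.88 CPM, RPL3 from 2405 ± 8.54 to 1608 ± 64.5 CPM and RPL13A from 2762 ± 28.8 to 1924 ± 24.8 CPM. Ribosomal protein genes have many processed pseudogenes, and reads may be split among them. The translation factors EEF2 and EEF1A1 fell from 4119.8 ± 108 to 3171 ± 31.5 CPM and from 9311 ± 9.63 to 8019.6 ± 334 CPM, and RACK1, a scaffold on the ribosome, from 2571 ± 18.5 to 1856 ± 16.9 CPM.

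Genes of energy metabolism differed by list. Of the nuclear oxidative phosphorylation genes, 17 of 40 tested members rose and 0 fell (15 and 7 with library-size scaling), and the largest rise, NDUFA1, was from 15.6 ± 1.95 to 27.8 ± 0.193 CPM. All 13 mitochondrially encoded genes had negative log2 changes, 11 of them called, with a median of -0.20. The count depended on single libraries: 5 members were called without Vc-control replicate 1, 6 without Vc-1nM-DHT replicate 2 and 8 with DESeq2. MT-CO1, a cytochrome oxidase subunit, fell from 7335 ± 78.1 to 6469 ± 16.5 CPM. Glycolysis and pentose phosphate genes went both ways (12 rises and 14 falls among 36). SLC2A3, the glucose transporter GLUT3, had 2 counts in control and 184 with DHT, a ratio of 103 (28.2 to 861), and VEGFA, the angiogenic factor, rose from 72.8 ± 0.417 to 281 ± 5.89 CPM. ENO2, an enolase of neurons, fell from 7.11 ± 0.152 to 1.68 ± 0.07 CPM, and PFKM, the muscle phosphofructokinase, from 124 ± 3.28 to 42.1 ± 3.76 CPM.

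The prostate makes polyamines in large amounts, and 8 of 13 polyamine genes rose. ODC1, the rate-limiting ornithine decarboxylase, went from 71.4 and 70.3 CPM to 221 and 218 CPM, a log2 change of 1.63 (SE 0.064, adjusted p = 3.53e-53), and AMD1, which supplies the aminopropyl donor, from 554 and 552 to 721 and 705 CPM, a log2 change of 0.37 (SE 0.048, adjusted p = 1.73e-11). SAT1, which acetylates polyamines for export, rose from 105 ± 0.231 to 463 ± 0.082 CPM; AZIN2 fell from 7.41 ± 0.742 to 3.74 ± 0.176 CPM. Among amino acid transporters, 12 of 23 tested members rose and 5 fell: SLC1A4, a neutral amino acid carrier, rose from 22.9 ± 0.576 to 133 ± 9.02 CPM and the glutamine carrier SLC1A5 from 115.9 ± 8.92 to 443 ± 6.34 CPM, while the taurine carrier SLC6A6 fell from 21.3 ± 1.54 to 4.19 ± 0.822 CPM and the glutamate carrier SLC1A2 from 27.7 ± 1.93 to 10.4 ± 3.104 CPM.

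The list of known androgen-repressed genes moved down: 2 of 17 tested members rose and 13 fell, with a median log2 change of -1.52. UGT2B15, which conjugates androgens to glucuronic acid, measured 48.97 and 41.8 CPM in control and 3.12 and 1.52 CPM with DHT, a log2 change of -4.24 (SE 0.21, adjusted p = 8.67e-54). UGT2B10 had 49 counts in control and 1 with DHT, a 43.6-fold lower level (7.46 to 1760), and BCHE, butyrylcholinesterase, 72 and 0 counts, at least 21.3-fold lower against 3 counts over the group, the limit that a count of 0 allows. The UGT2B genes are related copies of each other, so some of their reads may be misassigned. ACPP, prostatic acid phosphatase, fell from 2187 and 2194 to 399 and 371 CPM (log2 change -2.51 (SE 0.044, adjusted p = 1.58e-94)), and DDC, the decarboxylase of dopamine and serotonin synthesis, from 71.7 ± 2.81 to 4.21 ± 0.203 CPM. LIFR, a cytokine receptor, rose from 97.8 ± 0.974 to 417 ± 20.9 CPM against the direction of the list, as did TNFAIP8 from 5.15 ± 0.644 to 13.3 ± 1.22 CPM. Androgen synthesis and inactivation genes counted 3 rises and 8 falls among 20 (5 falls without Vc-control replicate 1); besides the UGT2B genes, AKR1C3, which makes testosterone, fell from 65.1 ± 2.27 to 15.9 ± 3.41 CPM, and STS, the sulfatase that frees steroid precursors, rose from 15.5 ± 0.805 to 27.9 ± 1.43 CPM.

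NOV, a secreted matricellular protein, was among the largest falls of genes with a mean of at least 5 CPM and measured 18.9 and 19.5 CPM in control and 0 in both DHT libraries, at least 141-fold lower. WNT2, a secreted ligand, went from 59.4 and 64.7 CPM to 2.55 and 1.02 CPM, a log2 change of -5.05 (SE 0.23, adjusted p = 2.36e-64). LUM, a proteoglycan of connective tissue also on the stromal marker list, went from 14.01 and 13.5 to 0.328 and 0.61 CPM (341 and 10 counts), a log2 change of -4.89 (SE 0.46, adjusted p = 4.83e-35). All of these genes were present in every control library and low in every DHT library. TRPM3, a cation channel, fell from 13.5 ± 0.603 to 0.244 ± 0.229 CPM, KCNK13, a potassium channel, from 14.1 ± 1.47 to 0.684 ± 0.038 CPM, and GPR85, an orphan receptor of the brain, from 32.5 ± 0.997 to 1.74 ± 0.446 CPM. The adhesion molecule MCAM fell from 20.04 ± 0.137 to 1.102 ± 0.166 CPM, and the kinase-like CAMKV from 35.8 ± 2.15 to 1.29 ± 0.385 CPM. HABP2, a secreted protease, fell from 14.4 ± 1.34 to 0.674 ± 0.091 CPM, SOBP from 17.2 ± 3.19 to 0.796 ± 0.312 CPM, STXBP6, which binds the vesicle fusion machinery, from 12.7 ± 1.74 to 0.655 ± 0.351 CPM, and DDN, dendrin, from 18.7 ± 0.728 to 1.09 ± 0.542 CPM. SYTL2, an effector of RAB27 in secretion and among the genes with the largest loss in CPM, fell from 1143 and 1086 CPM to 142 and 135 CPM, a log2 change of -3.01 (SE 0.052, adjusted p = 1.25e-93).

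In the hedgehog and WNT lists more genes fell than rose. The hedgehog ligand SHH, which binds PTCH1 and thereby frees SMO, stood at 158 and 159.6 CPM in control and 11.5 and 11.4 CPM with DHT. It was low in both DHT libraries, with a log2 change of -3.79 (SE 0.11, adjusted p = 2.04e-76). Of the hedgehog pathway genes, 3 of 16 tested members rose and 9 fell (median log2 change -1.06). The ligand IHH fell from 74.9 ± 0.924 to 28.7 ± 1.86 CPM, the transducer SMO from 27.2 ± 3.44 to 5.37 ± 0.164 CPM, and the receptor PTCH1 from 44.4 ± 1.31 to 15.3 ± 2.68 CPM. GLI2, an effector, had 27 counts in control and 1 with DHT, 24.0-fold lower (3.96 to 983), while DISP2, of the family that releases the ligand, rose from 4.68 ± 0.017 to 44.9 ± 1.47 CPM. In the WNT pathway, 7 of 37 tested members rose and 14 fell: the ligand WNT10B fell from 4.01 ± 0.864 to 0.225 ± 0.03 CPM and the receptor FZD3 from 83.6 ± 0.126 to 19.3 ± 1.91 CPM, while the receptor FZD5 rose from 94.4 ± 4.91 to 489 ± 1.26 CPM and FZD9 from 0.899 ± 0.291 to 5.19 ± 1.02 CPM. In the Notch pathway, 6 of 24 tested members rose and 9 fell, where 21.8% and 22.5% of all genes did, so the rises are near the background; the ligand DLL3 fell from 6.83 ± 1.39 to 1.54 ± 0.025 CPM and the glycosyltransferase LFNG from 4.72 ± 1.13 to 1.11 ± 0.282 CPM, while HES1, a target and repressor, rose from 2.899 ± 0.255 to 15.5 ± 1.02 CPM.

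In the TGF-beta pathway, 16 of 35 tested members rose and 9 fell (15 and 14 with library-size scaling, where the median log2 change moves from 0.04 to -0.13). BMP7, a ligand, fell from 50.5 ± 1.23 to 7.86 ± 1.197 CPM and the signal transducer SMAD3 from 38.9 ± 3.29 to 8.53 ± 2.31 CPM, while GDF15, a stress-induced ligand, rose from 31.8 ± 0.988 to 175 ± 1.04 CPM, the receptor BMPR1B from 39.9 ± 1.62 to 170.0 ± 4.66 CPM and TGFB2 from 3.05 ± 0.588 to 9.96 ± 0.724 CPM. Of the receptor tyrosine kinase genes, 10 of 27 tested members rose and 12 fell. EGFR, the receptor for EGF, rose from 44.6 ± 3.103 to 122 ± 3.097 CPM and FGFR1 from 18.04 ± 0.798 to 47.2 ± 1.37 CPM, while EPHB6 fell from 18.7 ± 2.07 to 2.25 ± 0.273 CPM and EPHB4 from 26.7 ± 4.37 to 4.05 ± 0.737 CPM. ROR2, a receptor for WNT5A, had 102 counts in control and 1 with DHT, a level 90.7-fold lower (15.9 to 3620). PDGFRB, a receptor of stromal cells, had 23 and 0 counts, at least 6.82-fold lower. In the PI3K and AKT pathway, 13 of 25 tested members rose and 4 fell (10 and 10 with library-size scaling, and 2 falls without Vc-control replicate 1), with SGK3, a kinase related to AKT, up from 2.26 ± 1.16 to 8.17 ± 1.21 CPM. ERK feedback and immediate-early genes counted 6 rises and 5 falls among 26 (5 and 8 with library-size scaling), shares near the background, with FOSL1 down from 1.52 ± 0.351 to 0.184 ± 0.028 CPM and the phosphatase DUSP1 up from 5.78 ± 0.002 to 13.4 ± 0.858 CPM.

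The luminal programme was not uniform. In the luminal prostate list, 20 of 30 tested members rose and 7 fell. SPDEF, an epithelial ETS factor, rose from 197 and 210.4 to 929 and 938 CPM, a log2 change of 2.19 (SE 0.052, adjusted p = 4.93e-79), and AMACR, a racemase used as a tumour marker, rose from 4.79 ± 0.79 to 19.1 ± 0.092 CPM. FOLH1, which encodes prostate-specific membrane antigen, fell from 367 and 352 CPM to 46.4 and 54.9 CPM, a log2 change of -2.83 (SE 0.065, adjusted p = 9.59e-76). The groups were apart in both cases, in opposite directions. The neuropeptide NPY fell from 252 ± 0.053 to 106 ± 1.95 CPM and the factor GATA2 from 471 ± 8.28 to 323 ± 3.98 CPM. Genes associated with ERG were divided, with 7 rises and 6 falls among 17 (5 and 6 with library-size scaling): CRISP3, a secreted protein, rose from 79.5 ± 3.02 to 281 ± 14.5 CPM, while TDRD1, a germline protein, fell from 325 ± 3.95 to 135 ± 7.18 CPM and PLA2G7, a phospholipase, from 11.6 ± 1.196 to 4.65 ± 0.972 CPM. Of the targets that androgen and glucocorticoid receptors share, 10 of 12 tested members rose and 1 fell; TSC22D3, a leucine zipper protein, rose from 3.23 ± 1.203 to 18.5 ± 0.981 CPM, ERRFI1, an inhibitor of EGFR, from 46.3 ± 0.263 to 228 ± 10.3 CPM, and CNKSR3 fell from 72.4 ± 1.15 to 24.96 ± 1.63 CPM. Receptor chaperones and coregulators counted 14 rises and 10 falls among 30 (11 and 10 with library-size scaling, median 0.09 and -0.08), with the progesterone receptor gene PGR down from 2.497 ± 1.37 to 0.234 ± 0.099 CPM and the glucocorticoid receptor gene NR3C1 up from 4.11 ± 0.4 to 9.33 ± 0.31 CPM.

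Neuroendocrine and neural genes counted 2 rises and 7 falls among 19, with NCAM1 down from 4.098 ± 0.629 to 0.96 ± 0.08 CPM and SYP, synaptophysin, up from 10.3 ± 1.23 to 20.2 ± 0.692 CPM. Of mesenchymal and matrix genes, 7 of 23 tested members rose and 12 fell: FBLN2, fibulin 2, fell from 188 ± 5.498 to 33.5 ± 0.6 CPM and TNC, tenascin C, from 5.55 ± 1.64 to 1.14 ± 0.685 CPM, while SNAI2, a repressor of epithelial genes, rose from 0.192 ± 0.272 to 3.57 ± 0.877 CPM. For ion channels, 12 of 29 tested members rose and 8 fell; the potassium channel KCNK5 fell from 4.88 ± 0.91 to 0.461 ± 0.509 CPM. Lysosome and autophagy genes counted 24 rises and 6 falls among 41, led by WIPI1, which binds the forming autophagosome, from 2.46 ± 1.200 to 21.5 ± 0.021 CPM. Metallothionein and xenobiotic genes counted 9 and 2 among 20, with CYP1B1, an enzyme that hydroxylates estrogens, up from 13.99 ± 1.88 to 87.03 ± 3.82 CPM and CYP1A1 down from 24.3 ± 2.71 to 16.5 ± 2.09 CPM.

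In the BCL2 family, 7 of 18 tested members rose and 4 fell (6 and 7 with library-size scaling, and 2 falls without Vc-1nM-DHT replicate 1): PMAIP1, the death inducer NOXA, rose from 3.77 ± 0.548 to 10.2 ± 0.39 CPM and BID fell from 21.1 ± 0.499 to 5.84 ± 0.792 CPM. Heat shock genes counted 8 rises and 5 falls among 15 (5 and 6 with library-size scaling), with HSPA1A up from 6.88 ± 1.81 to 14.9 ± 0.784 CPM. Of MHC class I presentation genes, 7 of 19 tested members rose and 5 fell, with a median log2 change of 0.10 that turns to -0.07 with library-size scaling: B2M, the light chain of the complex, rose from 100.3 ± 0.462 to 239 ± 0.856 CPM and TAP2, a peptide transporter, fell from 9.16 ± 0.334 to 2.96 ± 1.03 CPM. Interferon-stimulated genes were mostly not called, with 4 rises and 2 falls among 28 (3 and 5 with library-size scaling). In the marker lists tested by gene, 5 of 10 basal, 7 of 15 stromal and endothelial, and 1 of 12 immune genes passed the filter. KRT15 rose from 0.559 ± 0.19 to 2.700 ± 0.943 CPM; CAV1 had 41 counts in control and 0 with DHT, at least 12.2-fold lower. With library-size scaling the basal markers counted 1 rise and 3 falls in place of 1 each. LUM, PDGFRB and EMCN were the 3 stromal and endothelial falls, and CD14 the immune one (1.58 ± 0.053 against 0.317 ± 0.017 CPM).

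With the androgen receptor antagonist present, 1 nM DHT still changed many genes. Comparing DHT plus enzalutamide with enzalutamide alone in Vc, 3709 genes (16.4%) were called higher and 3257 (14.4%) lower. Of the 1609 genes that rose by at least 2-fold with DHT alone, 1098 (68.2%) also rose in the presence of enzalutamide and 4 fell, and their median log2 change was 0.87 instead of 1.43. Of the 2407 that fell by at least 2-fold, 1398 (58.1%) also fell and 16 rose, with a median of -0.80 instead of -1.70. The difference of the 2 effects was tested as an interaction. It was called in 3147 genes (14.0%), in 1698 (7.53%) upward and in 1449 (6.42%) downward, or 2097 and 1093 with library-size scaling. Among the 2-fold rises, 676 (42.0%) were smaller with enzalutamide and 8 larger, and among the 2-fold falls 853 (35.4%) were smaller and 4 larger. These genes were chosen by their response without enzalutamide, which also enters the difference. The shares that were smaller and larger, and the medians, are therefore descriptions of that choice of genes.

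The genes whose rise was most reduced included FKBP5 and NCAPD3. FKBP5 went from 51.2 and 51.6 CPM with enzalutamide to 228 and 253 CPM with both compounds, a log2 change of 2.23 that differed from that without the drug by -2.57 (SE 0.11, adjusted p = 1.52e-17). NCAPD3 went from 84.5 and 88.3 to 226 and 245 CPM, a difference of -2.72 (SE 0.12, adjusted p = 1.15e-12). Both still rose, to levels far under those with DHT alone. For JAM3, a junctional adhesion molecule, the rise from 25.7 ± 3.27 to 99.2 ± 11.8 CPM was not seen with enzalutamide: the libraries measured 28.9 and 29.9 CPM without and 25.8 and 22.8 CPM with DHT. All of these lie far below the values with DHT alone, and the difference was -2.22 (SE 0.15, adjusted p = 5.09e-29). GLIS3, a zinc finger factor, and MUM1L1 followed the same pattern, with log2 changes of 2.85 and 2.24 without the drug and 0.11 and -0.65 with it. ERRFI1 had a log2 change of 0.56 in place of 2.30, a difference of -1.74 (SE 0.10, adjusted p = 1.56e-32). For KLK2 and KLK3 the log2 changes were 1.14 and 1.34 with enzalutamide, and the differences of -0.07 (SE 0.058, adjusted p = 0.536) and -0.12 (SE 0.14, adjusted p = 0.686) were not called.

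Among the falls, WNT2 and MYC were smaller with enzalutamide. WNT2 went from 55.1 and 54.6 CPM with enzalutamide to 25.2 and 28.7 CPM with both compounds, a log2 change of -1.03, and differed by 4.02 (SE 0.25, adjusted p = 1.36e-38). MYC went from 379 and 378 to 204 and 208 CPM, with a difference of 1.97 (SE 0.082, adjusted p = 2.47e-48). The values with both compounds lay between those of the enzalutamide libraries and those with DHT alone for WNT2 and MYC. MEX3A, an RNA-binding protein, fell to 9.77 and 5.79 CPM with DHT alone and to 48.96 and 49.5 CPM with both, a difference of 2.68 (SE 0.15, adjusted p = 4.34e-36), and CDCA7, a MYC-responsive cell cycle gene, differed by 2.66 (SE 0.33, adjusted p = 2.11e-12). NOV kept 0.803 and 1.23 CPM with both compounds. AC098617.1, an antisense RNA, turned its direction, with log2 changes of -1.52 without and 1.23 with enzalutamide. SHH fell from 231 and 235 to 19.02 and 22.99 CPM, and its difference of 0.32 (SE 0.14, adjusted p = 0.118) was not called.

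By list, the median log2 change of the nucleolar ribosome biogenesis genes was -0.13 instead of -0.72. In 33 of 54 members the difference was called upward, against 7.53% of all genes and 30.5% of the genes called lower with DHT alone. NOP16, an assembly factor, had log2 changes of -1.31 without and -0.27 with enzalutamide, and POLR1B, a polymerase I subunit, had -1.08 and 0.02. The cholesterol list had medians of 1.25 and 1.01, and 11 of 28 members were called smaller with enzalutamide; HMGCS1 went from 130.3 and 121 to 427 and 397 CPM. ER folding genes had medians of 1.31 and 1.08, ATF4 targets 1.46 and 1.27, and DNA replication genes -1.09 and -0.69. The effect was called smaller in 14 of 37, 11 of 30 and 15 of 44 members of these 3 lists. For the targets shared with the glucocorticoid receptor the medians were 1.59 and 0.63, with 9 of 12 called smaller. Of all genes called higher with DHT alone, 27.2% were called smaller with enzalutamide, and of those called lower 30.5%. Among the 2-fold rises and falls the shares were 42.0% and 35.4%. List counts near these shares are near those of responding genes at large. The list medians were not compared by a test.

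**Figure D4:**
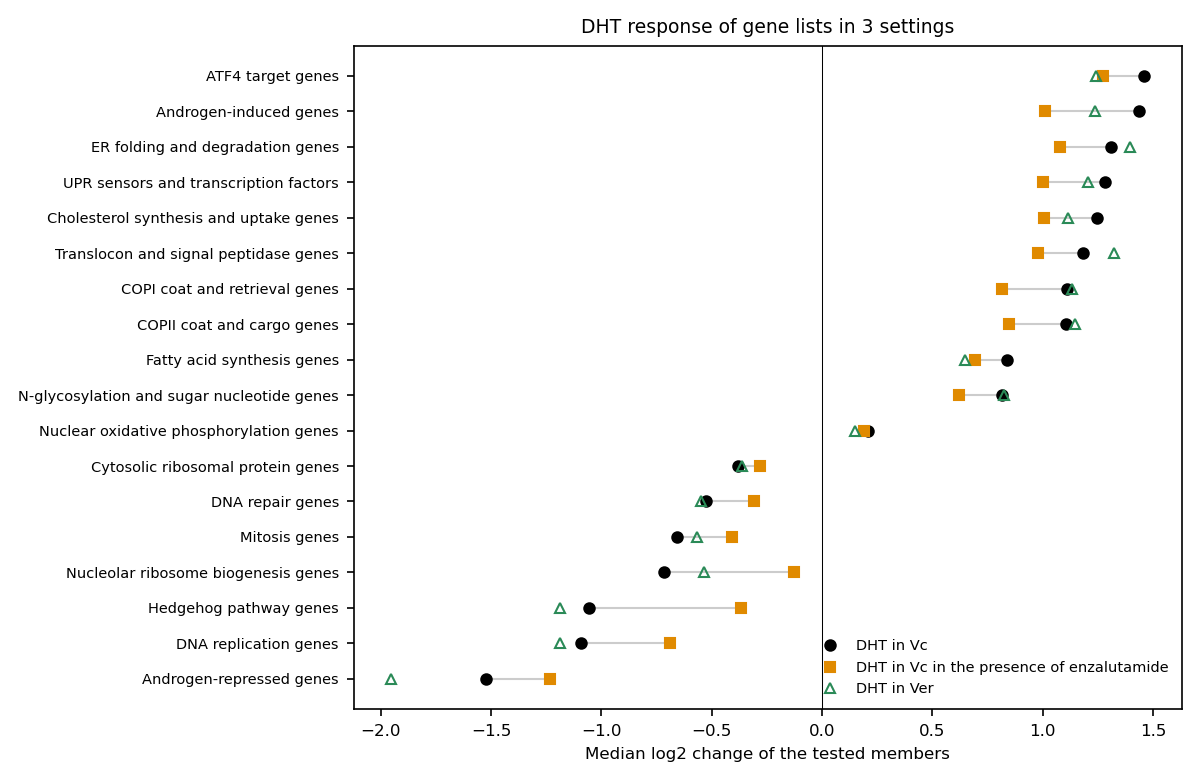
Median log2 change of the tested members of 18 gene lists for DHT in Vc (black circles), for DHT in Vc in the presence of 1 µM enzalutamide (orange squares) and for DHT in Ver (green triangles). In each list the square lies nearer to 0 than the circle, and among the 18 lists drawn the distance is longest for hedgehog (-0.37 against -1.06) and nucleolar genes (-0.13 against -0.72); the triangles lie on both sides of the circles.

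The androgen response of Ver, after 4 months in enzalutamide, differed from that of Vc in fewer genes. The difference of the DHT effects, Ver minus Vc, was called in 523 genes (2.32%), of which 201 (0.891%) were higher and 322 (1.43%) lower. Of the genes that rose by at least 2-fold in Vc, 99 (6.2%) rose by less in Ver and 24 by more, and their median log2 change was 1.25 in Ver. Of those that fell by at least 2-fold, 51 (2.1%) fell by less and 37 by more, with a median of -1.46. These genes were chosen by their response in Vc, which also enters the difference, so nothing is read from the balance of smaller and larger effects or from the medians. A difference that misses the threshold does not show that the lines respond alike. The count of called differences depended on single libraries: it was 318 when Vc-control replicate 1 was left out, 323 for Vc-1nM-DHT replicate 2, 325 for Ver-1nM-DHT replicate 2 and 300 for Ver-control replicate 2.

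Some genes went in opposite directions. AKAP12, a scaffold for protein kinase A, measured 32.6 and 31.3 CPM in Vc control and 19.1 and 18.5 CPM with DHT, but 18.9 and 20.4 CPM in Ver control and 38.3 and 39.3 CPM with DHT, a difference of 1.74 (SE 0.18, adjusted p = 2.06e-13). DHT lowered AKAP12 in both Vc libraries and raised it in both Ver libraries. SIPA1L2, a GTPase regulator, and SCGN, a calcium-binding protein of neuroendocrine cells, had log2 changes of -0.92 and -1.34 in Vc and 0.65 and 0.34 in Ver (the last not called), with differences of 1.57 (SE 0.22, adjusted p = 1.32e-08) and 1.69 (SE 0.22, adjusted p = 1.55e-09). GPX3, a secreted glutathione peroxidase, rose in Vc from 29.95 and 30.2 to 38.8 and 42.7 CPM, and in Ver, where its control level was 255 and 269 CPM, it measured 122 and 108 CPM with DHT. The effects differed by -1.62 (SE 0.11, adjusted p = 6.9e-28).

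In other genes the direction was shared and the size differed. CACNG4, a channel subunit, rose from 7.49 ± 0.736 to 34.05 ± 0.154 CPM in Vc. In Ver it measured 11.8 and 10.7 CPM without and 16.8 and 17.9 CPM with DHT, and the effects differed by -1.56 (SE 0.22, adjusted p = 2.87e-08). DSEL, an epimerase of dermatan sulfate, fell from 115 and 124 to 26.7 and 29.6 CPM in Vc and from 210.0 and 204 to 16.4 and 19.9 CPM in Ver, and the effects differed by -1.42 (SE 0.12, adjusted p = 5.64e-19). MGP, matrix Gla protein, had log2 changes of -2.80 and -4.63, and DSCAM, a neural adhesion molecule, -3.25 and -1.46. F2R, the thrombin receptor, had log2 changes of -2.89 in Vc and -1.24 in Ver, where its control level was 7.95 and 7.69 CPM against 34.2 and 31.9 CPM in Vc. STEAP4 reached 76.5 and 84.2 CPM in Ver from 0.194 and 0.268 CPM, and its difference was 2.15 (SE 0.70, adjusted p = 0.0173). SHH, much lower in Ver control at 25.99 and 26.3 CPM, fell there to 4.19 and 3.32 CPM, a difference of 1.001 (SE 0.20, adjusted p = 0.000461). FKBP5 went from 68.95 and 74.1 to 1711 and 1845 CPM in Ver, and its difference of -0.16 (SE 0.11, adjusted p = 0.605) was not called.

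**Figure D5:**
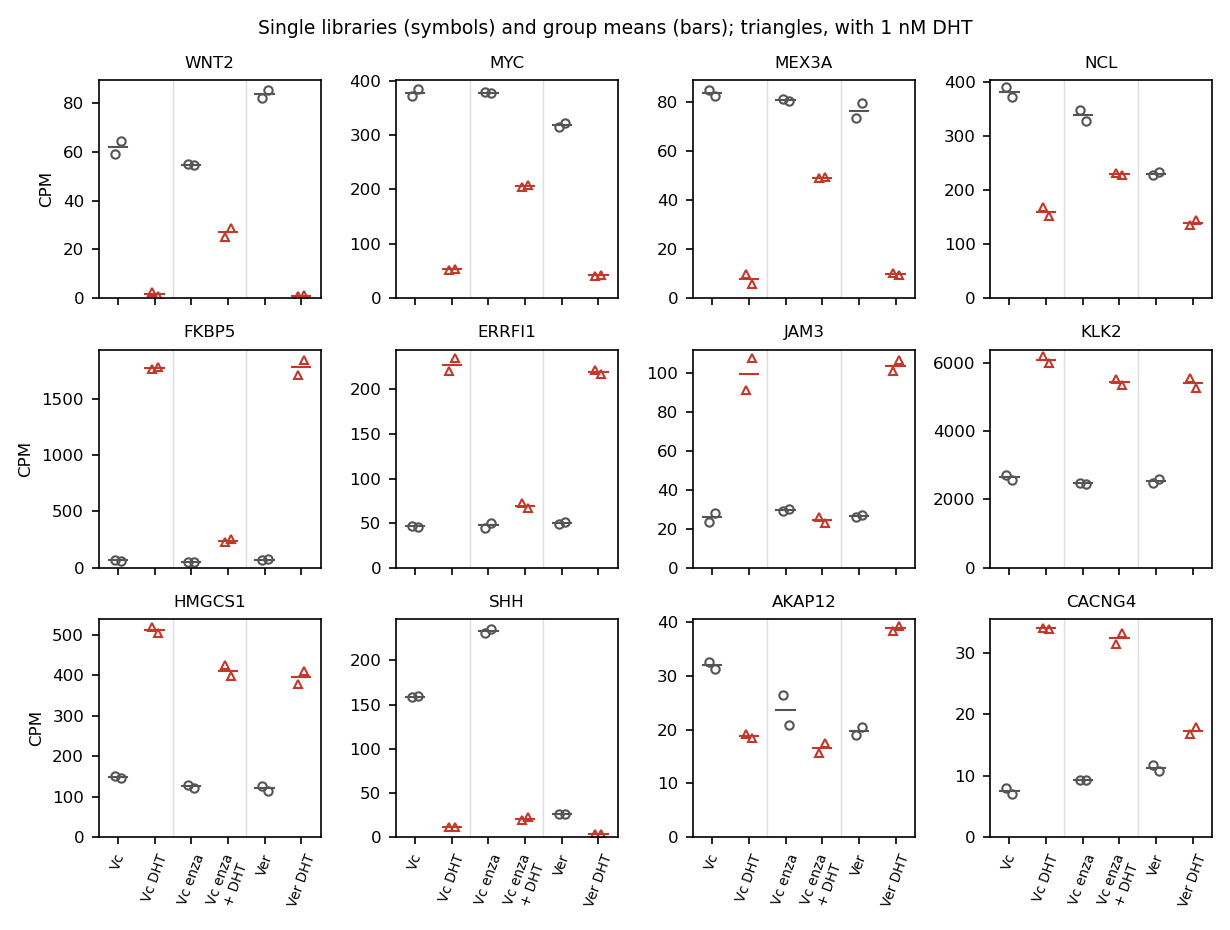
CPM of 12 genes in single libraries of 6 groups, without DHT (circles) and with 1 nM DHT (triangles), in Vc, in Vc with 1 µM enzalutamide and in Ver, with bars at the group means and axes from 0. WNT2, MYC and MEX3A keep part of their control level when enzalutamide is present with DHT, JAM3 does not rise there, KLK2 and HMGCS1 rise in all 3 arms, and AKAP12 falls in Vc and rises in Ver.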

How the data were processed

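Polyadenylated RNA of 16 libraries (8 groups of 2) was sequenced. Per the submitters' processing notes, reads were handled with FastQC 0.11.7, Trimmomatic 0.36-5, HISAT2, SAMtools and HTSeq 0.11.1 on GRCh38. The authors deposited raw counts per gene, counted in union mode without strand per the file names. In this mode a read over exons of 2 genes, on 1 strand or both, is ambiguous and is counted for neither. Where genes overlap, a read over an exon of only 1 of them is counted for that gene even if it came from the other. The annotation release is not given in the sources used here. The authors also deposited a table of signal values, which equals the counts divided by 1 size factor per library and served here only for gene names.

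Of the 58302 genes, 40888 had a count. The 5 summary lines of each file, which hold reads assigned to no feature and ambiguous reads, were left out of library sizes. Groups were taken from the source labels. Counts of all 16 libraries were fitted in edgeR 4.0.16 (R 4.3.3, limma 3.58.1) with TMM scaling, filterByExpr and the robust quasi-likelihood F test, 2-sided, with Benjamini-Hochberg adjustment over 22553 genes and calls at an adjusted p under 0.05. The fit had 8 residual degrees of freedom and a biological coefficient of variation of 6.01%. The contrasts were DHT against control in Vc, and the difference between this effect and that in Ver or that in the presence of enzalutamide. Values after ± are SDs over the 2 libraries of a group (n = 2), and SE is the standard error of a log2 value. The model was also run on simulated data in which few genes were changed (67 by 2-fold). Of the 2-fold changes, 59.7% were called for DHT in Vc. For the differences 41.8% (Ver minus Vc) and 44.8% (with minus without enzalutamide) were called. False calls numbered 7, 6 and 8 among 22553 genes. With so few changed genes these shares need not hold for the data.

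For genes with fewer than 4 counts in a group, the ratio of summed counts is given with a 95% exact interval, or a bound against 3 counts over the group. Alternatives were other scalings, no filter, the libraries of the contrast alone, DESeq2 1.42.0, the replicate number as a block, and each library left out. Genes were named by rule: 17 known genes, the 15 largest rises and falls and the 10 largest gains and losses in CPM, up to 4 rises and 4 falls in each of 50 lists with members called against a list's majority, and the 10 largest differences each way. The text names a part of these. The members and lists were chosen with earlier results of these data known. Promoter windows (250 bases before to 50 after the start) came from RefSeq, GRCh38.p14, and 12785 tested genes matched one.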

Additional observations from a re-analysis of the deposited data

Results flagged for a closer look

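Of the 231 genes whose values are given in the report, 37 had a DHT effect that differed between Ver and Vc by the test of the difference (edgeR's quasi-likelihood test, adjusted p under 0.05). Over all 22553 genes tested, 523 (2.32%) had such a difference. Some of the genes in the report were named for a large called difference, so the count of 37 partly follows from that choice. Each number below is the effect in Ver minus that in Vc, on the log2 scale. Line and sequencing lane cannot be told apart.

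Genes whose DHT effect had the opposite sign in Ver were AKAP12 (1.74), SIPA1L2 (1.57), SCGN (1.69), CYP1A1 (1.34), GPX3 (-1.62) and ERO1A (0.58), of which ERO1A was not called in Vc and SCGN not in Ver. Among genes that rose in Vc, the effect was smaller in Ver for SLC2A5 (-2.65), CACNG4 (-1.56), NR3C1 (-1.10), AFF3 (-1.10), CKB (-0.58), SAT1 (-0.50), SLC1A5 (-0.45), EGFR (-0.41), PMEPA1 (-0.35), FZD5 (-0.35), SREBF1 (-0.31) and XBP1 (-0.30). It was larger for STEAP4 (2.15), B2M (0.35) and ERG (0.29). Among genes that fell in Vc, the fall was smaller in Ver for DSCAM (1.79), F2R (1.65), CAMKV (1.23), SHH (1.00), ACPP (0.56), NCL (0.53) and NPM1 (0.30). It was also smaller for NOV (6.64) and ROR2 (4.41), whose values depend on the prior count, since the DHT libraries of Vc held 0 and 1 counts of these genes. The fall was larger in Ver for MGP (-1.83), DSEL (-1.42), WNT2 (-1.26), IHH (-0.95), MCM2 (-0.63) and FOLH1 (-0.59). CDT1, which was not called in Vc, differed by -0.89.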

How the results depend on the processing

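The counts of genes called for DHT against control in Vc, in either direction, stayed within 1.5 times of 4917 higher and 5070 lower under every alternative run. With library size only they were 3575 and 6814, with DESeq2 4497 and 4382, without the low-count filter 4559 and 4909, and with 1 of the 4 libraries left out 4203 to 4344 and 4255 to 4357. Of 398 genes followed, 350 kept their side of the threshold and direction under every alternative. The 1 reversal was RNU1-4, whose log2 change was -0.57 without replicate 1 of the DHT libraries, which holds its counts, and 7.44 without replicate 2. The differences between the lines rest on less: with 1 of 8 libraries left out, 300 to 529 genes were called (523 with all), 103 to 236 of them higher and 183 to 293 lower. The count was 323 without Vc-1nM-DHT replicate 2, 318 without Vc-control replicate 1, 325 without Ver-1nM-DHT replicate 2 and 300 without Ver-control replicate 2. DESeq2 called 397. The differences with enzalutamide were called in 2450 to 2667 genes with 1 library left out and 2590 with DESeq2, of 3147. Libraries with the same replicate number did not deviate together (correlations of deviations -0.049 to 0.047), so the numbers are not taken as pairs. With the replicate block 9976 genes were called for DHT in Vc, 9921 of them also without it, and 545 and 3196 for the 2 differences. With 2 libraries a group, genes of a few counts carry wide errors.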

Other observations

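Several small features with large rises lie inside genes that rose on the opposite strand. AL033519.1 and a SNORA40 copy lie within the span of FKBP5, and AP001775.1 within that of NCAPD3. AL033519.1 measured 0.616 and 0.34 CPM in control and 16.7 and 13.8 CPM with DHT, and AP001775.1 0.539 and 0.765 and 15.6 and 16.7 CPM. Both were near 0 in control and high in both DHT libraries. Since reads were counted without strand, reads counted for these features may come from their host genes. With enzalutamide present, DHT gave log2 changes of -0.20 for AP001775.1 and 1.45 for NCAPD3, and of 1.61 for AL033519.1 and 2.23 for FKBP5.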
